A study of Mus musculus with 4 samples.

Results

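Transcription regulators of the brown fat lineage and of the C/EBP family were examined in fetal brown adipose tissue (BAT). The 10 genes were Prdm16, Ebf1, Ebf2, Ebf3, Zfp516, Tbx15, Ehmt1, Cebpa, Cebpb and Cebpd, chosen by name as brown-fate and adipogenic regulators outside the nuclear receptors, of 22298 genes in the count table. RNA-seq was performed on total RNA of BAT from C57BL/6 fetuses at E18.5, the last day of gestation. Control dams drank tap water, fructose dams drank water with 20% (w/v) fructose from mating on, and each group gave 2 libraries. No genotype or transgene was involved, and how many fetuses or litters stood behind a library was not given in the sources used here, so p-values measure only the spread between these libraries, which may be technical.

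Brown fat and skeletal muscle both have their origin in Myf5-expressing cells of the embryonic somite. EBF2 marks committed brown precursors and opens chromatin at brown genes, PRDM16 turns precursors towards the brown and away from the muscle fate, and EHMT1 is a histone methyltransferase that works in the PRDM16 complex. C/EBP proteins drive adipogenesis in steps, with CEBPB and CEBPD acting early and CEBPA sustaining the mature adipocyte, and CEBPB is also a partner of PRDM16.

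The libraries held 18542897 to 23645147 counts on genes. All 4 were labelled male, and 4 Y-linked genes summed to 422 and 390 counts in control and to 0 and 0 counts in fructose, so the fructose libraries went against their sex label, and an effect of sex cannot be told apart from the treatment in any comparison given here. Ucp1, the uncoupling protein that defines BAT, stood at 9705 and 12425 CPM (read counts scaled to the library's TMM-adjusted total) in control and 11004 and 9606 CPM in fructose. A level in bulk tissue cannot tell fewer cells of a type from less RNA per cell. A gene was called where the quasi-likelihood test of edgeR gave an adjusted p under 0.05.

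Promoters are shown for the 4 called C/EBP and EBF genes for which one was at hand. The called genes of these families had opposite signs. Of these 4 calls, only that of Ebf3 stayed with trends of length and GC content removed, as described below. The promoters can be read side by side. Each runs from 250 bases before to 50 after the start in RefSeq (GRCm38.p6), 5′ to 3′ on the gene's strand, and of the 10 genes 6 had one to print. Capitals mark matches on either strand to CCCNNGGG, the core of the EBF motif, and to TATAAA, the TATA box. The Cebpa promoter lies at chr7:35119043-35119342 (+), that of Cebpb at chr2:167688665-167688964 (+), the first of the 2 Ebf1 promoters at chr11:44617850-44618149 (+) and that of Ebf3 at chr7:137314396-137314695 (-).
Cebpa: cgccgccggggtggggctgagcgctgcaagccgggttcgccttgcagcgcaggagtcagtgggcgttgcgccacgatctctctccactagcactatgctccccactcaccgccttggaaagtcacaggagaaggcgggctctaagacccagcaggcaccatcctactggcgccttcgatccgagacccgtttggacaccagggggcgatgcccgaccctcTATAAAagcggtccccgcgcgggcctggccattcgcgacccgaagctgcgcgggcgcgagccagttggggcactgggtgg
Cebpb: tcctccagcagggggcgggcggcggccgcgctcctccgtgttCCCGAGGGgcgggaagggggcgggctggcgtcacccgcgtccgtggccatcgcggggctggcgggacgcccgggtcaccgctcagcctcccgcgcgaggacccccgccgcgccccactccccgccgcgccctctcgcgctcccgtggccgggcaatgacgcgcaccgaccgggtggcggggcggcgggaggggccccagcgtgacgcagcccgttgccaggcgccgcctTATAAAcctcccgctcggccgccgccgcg
Ebf1: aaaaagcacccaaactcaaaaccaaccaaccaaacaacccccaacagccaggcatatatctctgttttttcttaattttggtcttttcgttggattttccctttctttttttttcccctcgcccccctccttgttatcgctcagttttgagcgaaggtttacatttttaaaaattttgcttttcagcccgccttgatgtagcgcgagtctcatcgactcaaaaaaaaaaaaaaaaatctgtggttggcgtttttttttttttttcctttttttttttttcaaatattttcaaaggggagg
Ebf3: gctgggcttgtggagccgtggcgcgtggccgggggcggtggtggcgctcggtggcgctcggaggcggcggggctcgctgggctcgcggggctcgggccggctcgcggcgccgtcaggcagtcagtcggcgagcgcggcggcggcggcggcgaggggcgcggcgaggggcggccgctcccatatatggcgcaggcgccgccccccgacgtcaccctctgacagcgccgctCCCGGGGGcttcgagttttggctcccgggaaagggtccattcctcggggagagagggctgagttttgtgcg

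The promoters of Cebpb and Ebf3 were rich in GC, with 80.7% and 77.0% GC and 50 and 46 CpG dinucleotides in 300 bases, against medians of 52.7% and 7 over 32851 promoters. Cebpa held 67.3% GC and 29 CpGs. The first Ebf1 promoter was poor in GC, at 36.7%, though its 9 CpGs were above the median of 7, and its long runs of a and t can be seen above. The second Ebf1 promoter, not shown, held 53.0% GC and 17 CpGs. TATAAA stood once in Cebpa, at -30 from the start, and once in Cebpb, at 22, and was in 13.6% of all promoters. CCCNNGGG stood once in Cebpb, at -208 and overlapping a GC box (GGGCGG), and once in Ebf3, at -21, and was in 13.7% of all promoters. TTGCNNAA, a core of the C/EBP motif, was in none of the 7 promoters of the 6 genes and in 10.8% of all. A match is only a match of letters.

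Between genes, levels were compared as CPM per kb of merged exons. Cebpa stood highest in control, at 366 ± 26.1 CPM per kb (mean ± SD, n = 2), above 98.7% of tested genes, and Cebpb followed with 89.2 ± 9.40. Ebf2 was the highest of the brown-lineage regulators at 10.4 ± 0.431, above Cebpd with 7.17 ± 1.89. Ehmt1 (3.14 ± 0.173), Ebf3 (2.87 ± 0.111), Prdm16 (2.74 ± 0.941), Ebf1 (2.33 ± 0.514) and Zfp516 (2.10 ± 0.00423) lay close together, and the neighbours from Ebf3 to Zfp516 overlapped in this order. Tbx15 was the lowest with 1.14 ± 0.0604. In fructose the order was Cebpa, Cebpb, Ebf2, Cebpd, Ebf3, Ehmt1, Ebf1, Prdm16, Zfp516 and Tbx15, from 282 ± 1.39 down to 1.69 ± 0.151 CPM per kb, and only Ebf1 and Prdm16 overlapped as neighbours.

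The comparison of fructose with control asked which of these regulators changed in fetal BAT when the dam drank fructose. All 10 passed the filter on low counts. Ebf1, Ebf2, Ebf3 and Ehmt1 rose, Cebpa, Cebpb and Cebpd fell, and Prdm16, Zfp516 and Tbx15 did not pass the test. That is 4 of 10 higher, where 15.5% of 12888 tested genes were higher, and 3 of 10 lower, where 10.7% were lower. With an unadjusted p under 0.05 and a fold above 1.3, 4 were higher (Ebf1, Ebf2, Ebf3 and Tbx15) against 17.6% of all genes, and 2 were lower (Cebpb and Cebpd) against 6.18%. The libraries of the groups did not overlap for 9 of the 10 genes, with fructose above for 6 (33.4% of all genes) and below for 3 (31.6%). The median log2 fold change was 0.31 over the 10 genes and 0.0025 over all tested genes.

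**Figure D1:**
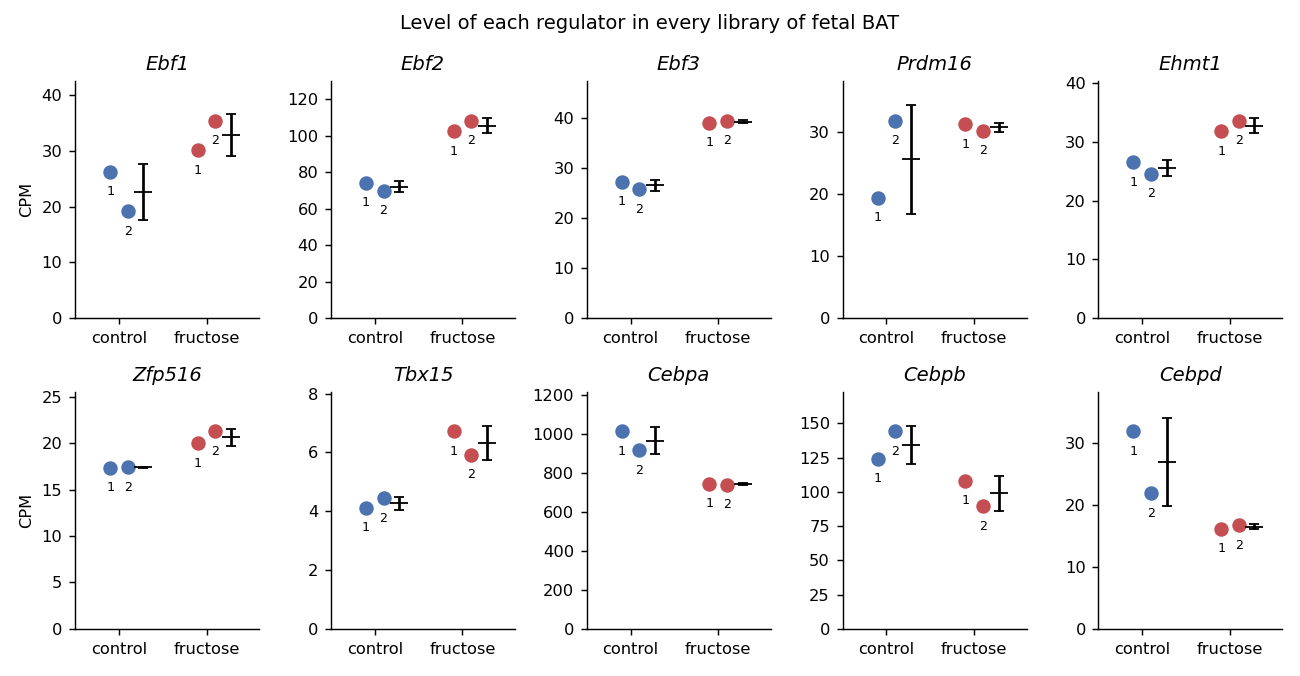
Level (CPM, linear axis from 0) of the 10 regulators in control (blue) and fructose (red) libraries, with the library number under each point and the mean ± SD (n = 2) beside it. Prdm16 is the only gene whose groups overlap, and the control libraries of Prdm16, Ebf1 and Cebpd lie far apart.

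Ebf2, the EBF gene most tied to the brown lineage (chr14:67233292-67430918, + strand, GRCm38), was at 74.0 and 69.8 CPM in control and 102 and 108 CPM in fructose. Both fructose libraries were above both control libraries, and the spread within a group was small beside the distance between them. Ebf2 rose by 0.55 on the log2 scale (SE 0.08, adjusted p = 0.0011), or 1.46-fold.

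Ebf3 (chr7:137193673-137314445, - strand), a paralog with the same DNA-binding domain, had 27.2 and 25.8 CPM in control and 39.0 and 39.5 CPM in fructose. The libraries of each group lay almost on top of each other. Its log2 fold change was 0.57 (SE 0.10, adjusted p = 0.0019).

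Ebf1 (chr11:44617317-45008091, + strand), better known from B cells and also an adipogenic factor, had 26.3 and 19.2 CPM in control and 30.2 and 35.5 CPM in fructose. The groups were apart, but control replicate 1 lay closer to fructose replicate 1 than to the other control library. Ebf1 rose by 0.53 (SE 0.14, adjusted p = 0.0186), and the call was lost without control replicate 2 (0.32, adjusted p = 0.051) or without fructose replicate 2 (0.41, adjusted p = 0.080).

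The 3 EBF genes thus lay between 0.53 and 0.57 on the log2 scale. Their summed level was 16.3 and 14.8 CPM per kb in control and 22.1 and 23.5 CPM per kb in fructose, with no overlap. Without removal of the trends described below, the makeup of that sum hardly moved. Ebf2 gave 66.7 ± 1.75% of it in control and 66.6 ± 0.360% in fructose, Ebf3 gave 18.45 ± 0.540% and 18.7 ± 0.679%, and Ebf1 gave 14.9 ± 2.29% and 14.7 ± 1.04%.

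Prdm16, the zinc finger regulator of the brown against muscle choice, was at 19.4 and 31.8 CPM in control and 31.2 and 30.2 CPM in fructose. Control replicate 2 was as high as the fructose libraries, and only control replicate 1 was low. The log2 fold change was 0.27 (SE 0.17, 95% interval -0.11 to 0.64, adjusted p = 0.28). A single library decides its sign, since it was -0.050 (adjusted p = 0.81) without control replicate 1 and 0.66 (adjusted p = 3.7e-05) without control replicate 2.

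Ehmt1, the PRDM16-associated methyltransferase, had 26.5 and 24.5 CPM in control and 31.8 and 33.6 CPM in fructose, with no overlap. It rose by 0.36 (SE 0.10, adjusted p = 0.0227), the smallest rise among the 4 called, and DESeq2 did not call it (0.35, adjusted p = 0.074). It was also not called without control replicate 2 (0.30, adjusted p = 0.068) or without fructose replicate 2 (0.32, adjusted p = 0.15).

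Zfp516, a cold-responsive zinc finger protein that binds the Ucp1 promoter, was at 17.4 CPM in both control libraries and at 20.0 and 21.3 CPM in fructose. Fructose was above control in both libraries, but the log2 fold change of 0.25 (SE 0.12, 95% interval -0.013 to 0.51) did not pass the test (adjusted p = 0.145).

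Tbx15, a T-box factor of brown preadipocytes and glycolytic muscle fibres, was the least abundant, with 4.12 and 4.44 CPM in control and 6.72 and 5.92 CPM in fructose, from only 78 to 152 counts a library. Its groups did not overlap, and its log2 fold change of 0.56 was as large as those of the EBF genes. With an SE of 0.20 and an adjusted p of 0.0567 it stayed just outside the threshold.

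Cebpa (chr7:35119293-35121928, + strand), the C/EBP of the mature adipocyte, was at 1013 and 916 CPM in control and 745 and 739 CPM in fructose. The fructose libraries were nearly equal and both lay below control. Cebpa fell by 0.38 on the log2 scale (SE 0.09, adjusted p = 0.0093), a change of -23.1%. Without fructose replicate 2 the value was -0.37 (adjusted p = 0.056).

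Cebpb (chr2:167688915-167690418, + strand), induced early in adipogenesis and by cAMP, had 124 and 144 CPM in control and 108 and 89.6 CPM in fructose. The groups did not overlap, with fructose replicate 1 nearest to control. Cebpb fell by 0.44 (SE 0.11, adjusted p = 0.0107), and was -0.31 (adjusted p = 0.092) without fructose replicate 2.

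Cebpd (chr16:15887286-15891031, + strand), the other early C/EBP, had 31.9 and 21.8 CPM in control and 16.2 and 16.7 CPM in fructose. Control replicate 1 was far above the rest, yet control replicate 2 also lay above both fructose libraries. It fell the most of the 10, by 0.71 on the log2 scale (SE 0.16, adjusted p = 0.0079), a change of -38.8%. The size rested on the control libraries, since it was -0.41 (adjusted p = 0.030) without control replicate 1 and -0.95 (adjusted p = 1.2e-09) without control replicate 2.

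The C/EBP sum fell from 475 and 449 CPM per kb in control to 359 and 345 in fructose, again with little change in makeup. Cebpa gave 79.1 ± 2.47% of it in control and 80.1 ± 1.88% in fructose, Cebpb gave 19.4 ± 2.81% and 18.7 ± 1.94%, and Cebpd gave 1.54 ± 0.347% and 1.25 ± 0.0653%. The ratio of Ebf2 to Cebpa per kb went from 0.0278 and 0.0290 in control to 0.0523 and 0.0557 in fructose. Neither the family sums and shares nor this ratio take into account the trends with length and GC content described below. With both trends removed, the log2 fold change was -0.10 for Cebpa (adjusted p = 0.53) and -0.054 for Cebpb (adjusted p = 0.79). It was -0.62 for Cebpd (adjusted p = 0.024) and 0.29 for Ebf2 (adjusted p = 0.042). For Ebf3 it was 0.37 (adjusted p = 0.032) and for Ebf1 0.074 (adjusted p = 0.76). In that fit the genes of a family no longer changed alike.

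**Figure D2:**
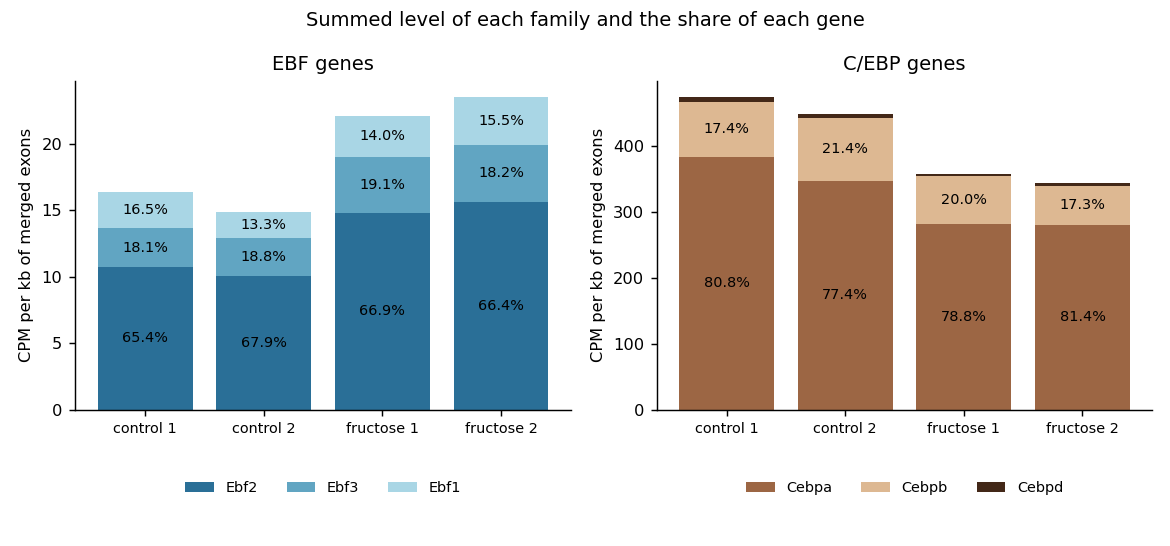
Summed level (CPM per kb of merged exons) of the 3 EBF genes (left) and the 3 C/EBP genes (right) in each library, split by gene with its share of the sum. The EBF sum is higher and the C/EBP sum lower in both fructose libraries, while the shares stay alike, with Ebf2 between 65.4% and 67.9% and Cebpa between 77.4% and 81.4%. Trends of fold change with length and GC content are not removed.

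How firmly these changes could be read depended on gene length and GC content. Across the 12888 tested genes, the log2 fold change rose with merged exon length (Spearman's rho = 0.46) and fell with GC content (rho = -0.50). For control replicate 2 against 1, the correlations with length and GC content were 0.0170 and 0.133, and for fructose replicate 2 against 1 they were 0.167 and -0.205. Genes share libraries and are not independent, so these are descriptions. The C/EBP genes have 1 exon each. Cebpa and Cebpb are short (2636 and 1504 bases) and, with 62.6% and 67.2% GC, above 98.9% and 99.9% of tested genes in GC content. Cebpd lies nearer the middle, with 3746 bases (above 39.2% of tested genes) and 51.6% GC (above 58.4%). Ebf1, Ebf2 and Ebf3 have 16 or 17 exons and are long (9756, 6928 and 9227 bases), with 43.1%, 45.0% and 49.4% GC, above 15.4%, 24.7% and 46.4% of tested genes.

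**Figure D3:**
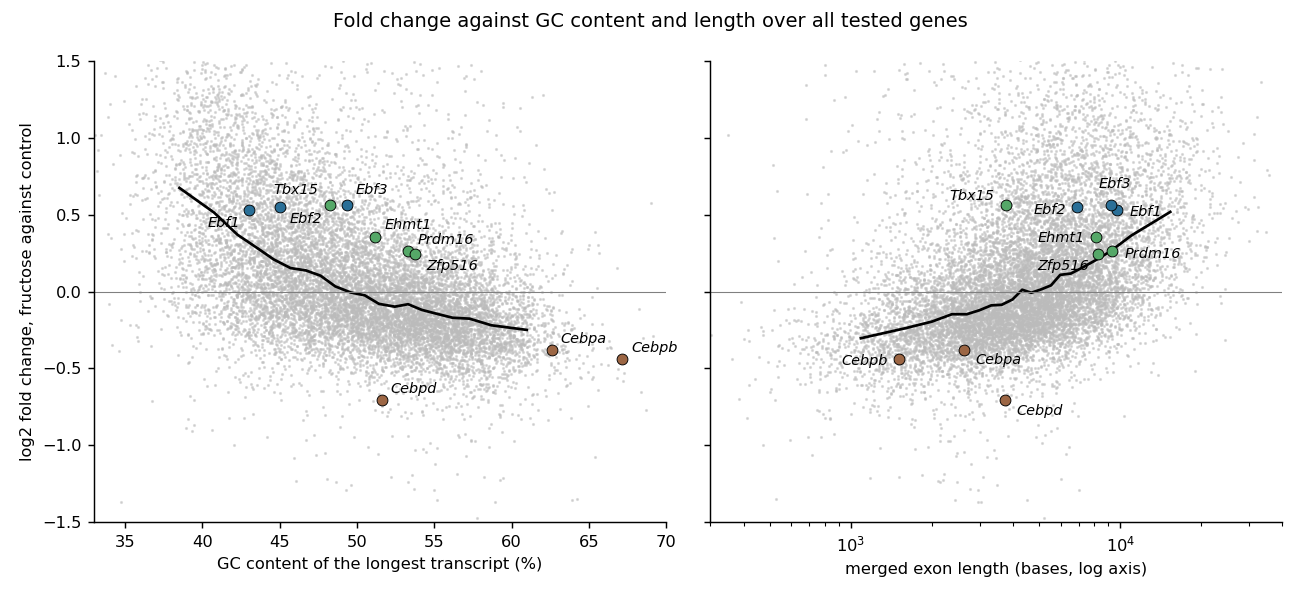
Log2 fold change (fructose against control) of all tested genes (grey) and the 10 regulators (coloured) against GC content (left) and merged exon length (right, log axis), with the median in 20 equal bins of genes (black line). Genes changed by more than 1.5 on the log2 scale lie outside the axis. Ebf1 lies near the GC line and Cebpd below both lines.

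With both trends removed from each library by lowess, Ebf3 kept 0.37 (adjusted p = 0.032), Ebf2 kept 0.29 (adjusted p = 0.042) and Cebpd kept -0.62 (adjusted p = 0.024). Ebf1 dropped to 0.074 (adjusted p = 0.76), Ehmt1 to 0.25 (adjusted p = 0.14), Cebpa to -0.10 (adjusted p = 0.53) and Cebpb to -0.054 (adjusted p = 0.79), so the calls of these 4 were lost. Tbx15 hardly moved (0.55, adjusted p = 0.087). Of the 16 alternatives, Ebf3 and Cebpd were called in all 16, Ebf2 in 15, Cebpb in 10, and Ebf1, Ehmt1 and Cebpa in 9 each. Of the genes not called above, Tbx15 was called higher in 4, and Zfp516 and Prdm16 in 1 each. The 1 alternative that lost Ebf2 used the length of the longest transcript beside GC content (0.23, adjusted p = 0.11), and it was added after the data were seen.

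**Figure D4:**
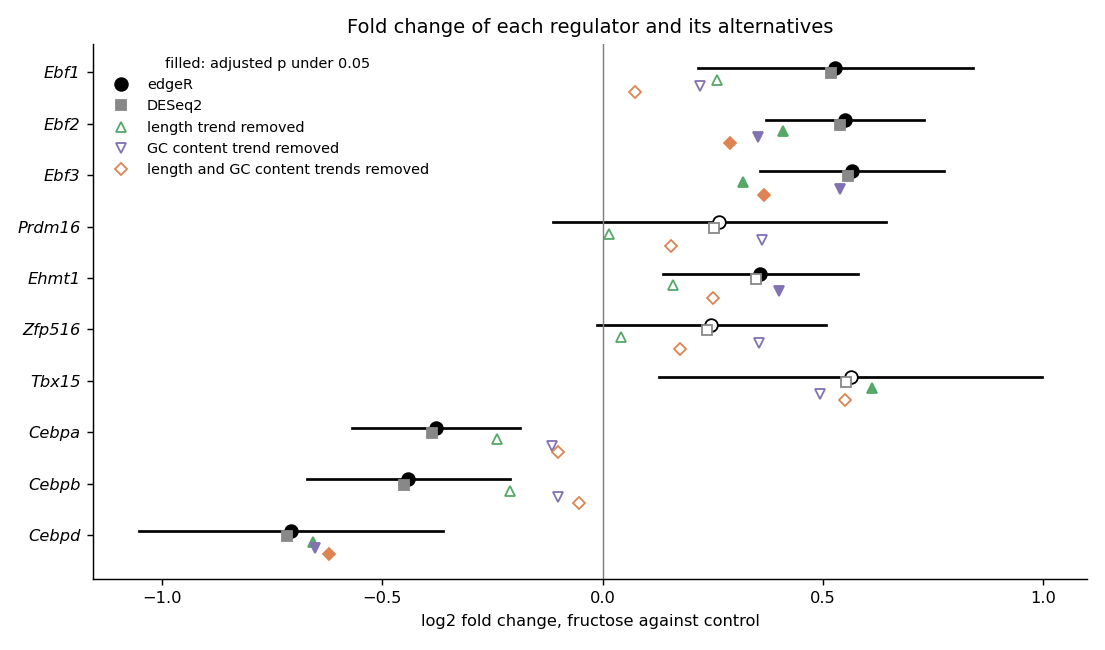
Log2 fold change (fructose against control) of each regulator by edgeR with its 95% interval (black), by DESeq2 (grey squares) and with the length trend, the GC content trend or both removed (coloured). Filled symbols have an adjusted p under 0.05, and Ebf2, Ebf3 and Cebpd stay filled in all 5.

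For 2 of the C/EBP genes, the exons overlap a gene that was also counted. Cebpb shares 312 of its 1504 exonic bases (20.7%) with Tmem189 on the opposite strand, which had 956 and 999 counts in control and 1038 and 1100 counts in fructose. Cebpd shares 562 of its 3746 bases (15.0%) with Spidr on the opposite strand, which had 110 and 91 counts in control and 111 and 109 counts in fructose. The counts of both overlapping genes are raw and give no direction of change by themselves. The libraries totalled 19224529 and 18542897 counts in control and 22461298 and 23645147 counts in fructose. Ebf2, Ebf3, Cebpa and Prdm16 share 6.12%, 3.85%, 1.93% and 1.17% of their exonic bases with opposite-strand genes that were not in the count table. How the counting treated strand was not given in the sources used here, so these genes, Cebpb and Cebpd are uncertain to that extent. No stretch of 50 bases was shared between any of the 10 genes. With some gene outside the 10, Cebpb shared 18.1% of its stretches, Cebpd 13.7%, Ebf2 4.82% and Ebf3 2.26%, and the others under 1%.

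The genes around these regulators, in 5 lists with 62 of 71 genes tested, held 14 higher and 6 lower genes. Over all 12888 tested genes, 15.5% were higher and 10.7% lower, and the counts of each list are to be read beside these shares. Among 15 tested partners and chromatin cofactors of the brown fate, 3 rose and 2 fell, with a median log2 fold change of 0.11 (0.0025 over all genes). Klf11, a KLF factor that acts with PPARG on brown genes, rose by 0.69 (SE 0.11, adjusted p = 0.0014), from 21.2 and 19.9 CPM to 31.1 and 35.2 CPM. Nfia, which opens brown enhancers, rose by 0.49 (SE 0.09, adjusted p = 0.0032), and Med1, a Mediator subunit bound by PRDM16, by 0.45 (SE 0.10, adjusted p = 0.0088). Ehmt2, the paralog and partner of Ehmt1, fell by 0.33 (SE 0.08, adjusted p = 0.0101), from 141 and 139 CPM to 111 and 112 CPM, opposite in sign to Ehmt1. Hdac3, a histone deacetylase, fell by 0.29 (SE 0.08, adjusted p = 0.0214). Ybx1, with the highest CPM of the list, had a log2 fold change of 0.019 (adjusted p = 0.89). Leaving out 1 library ended the calls of Ehmt2 (without fructose replicate 1, adjusted p = 0.064, or 2, adjusted p = 0.058), Med1 (without fructose replicate 2, adjusted p = 0.055) and Hdac3 (without control replicate 2, adjusted p = 0.061, or fructose replicate 1, adjusted p = 0.096, or 2, adjusted p = 0.11).

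Among 9 tested regulators that oppose the brown fate, 3 rose and 1 fell, with a median of -0.075. Trps1, a GATA-type repressor, rose by 1.04 (SE 0.27, adjusted p = 0.0142). Nrip1, the corepressor RIP140, rose by 1.01 (SE 0.23, adjusted p = 0.0086), and Rb1, the retinoblastoma protein, by 0.80 (SE 0.12, adjusted p = 0.0011). Trp53 (p53) fell by 0.44 (SE 0.10, adjusted p = 0.0086). Tle3, a corepressor that competes with PRDM16, had the highest CPM of the list, not divided by length, and a log2 fold change of -0.075 (adjusted p = 0.55). With both trends removed, described for the regulators above, none of the 4 was called, with Trps1 at 0.35 (adjusted p = 0.42), Nrip1 at 0.53 (adjusted p = 0.12), Rb1 at 0.37 (adjusted p = 0.060) and Trp53 at -0.34 (adjusted p = 0.051). Trps1 was also not called without fructose replicate 1 (0.96, adjusted p = 0.060).

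Among 15 tested other C/EBP and adipogenic factors, 4 rose and 1 fell, with a median of 0.26. Cebpz, a CCAAT-binding protein that shares the family's name but not its bZIP domain, rose by 0.79 (SE 0.22, adjusted p = 0.0232), Nr3c1, the glucocorticoid receptor, by 0.76 (SE 0.15, adjusted p = 0.0041) and Klf3, a repressor of adipogenesis, by 0.67 (SE 0.13, adjusted p = 0.0034). Cebpg, a C/EBP without a transactivation domain, named here after its value was seen, rose by 0.44 (SE 0.10, adjusted p = 0.0098), from 26.6 and 24.01 CPM to 33.2 and 35.6 CPM. Cebpz was not called by DESeq2 (adjusted p = 0.070) and neither gene was called without fructose replicate 2 (Cebpg at 0.39, adjusted p = 0.069, and Cebpz at 0.63, adjusted p = 0.20). With both trends removed, Cebpg and Cebpz were at 0.15 (adjusted p = 0.39) and 0.54 (adjusted p = 0.12). Srebf1, the lipogenic factor and the gene with the highest CPM of the list, fell by 0.43 (SE 0.10, adjusted p = 0.0102).

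The target genes were mixed. Of 15 tested brown-selective targets, 4 rose and 2 fell, with a median of 0.17. Ppargc1a, the coactivator of mitochondrial biogenesis, rose by 1.16 (SE 0.16, adjusted p = 0.00081), from 6.91 and 7.49 CPM to 14.2 and 17.9 CPM. Elovl3, a fatty acid elongase of brown fat, rose by 0.79 (SE 0.19, adjusted p = 0.0118), Ppara, a receptor that drives fatty acid oxidation, by 0.76 (SE 0.09, adjusted p = 0.00035), and Pdk4, a kinase that restrains pyruvate oxidation, named after its value was seen, by 0.53 (SE 0.09, adjusted p = 0.0025). Cox8b and Cox7a1, muscle and brown fat subunits of cytochrome c oxidase, fell by 0.44 (SE 0.10, adjusted p = 0.0099) and by 0.36 (SE 0.09, adjusted p = 0.0117), and neither was called without fructose replicate 2 (adjusted p = 0.062 and 0.11). Elovl3 was not called by DESeq2 (0.78, adjusted p = 0.15), and was at 0.44 (adjusted p = 0.037) without fructose replicate 1. Ucp1 had a log2 fold change of -0.10 (SE 0.13, adjusted p = 0.59). Of 8 tested white-selective genes 0 were called by edgeR and 0 by DESeq2, with 1 (Igfbp3) at an unadjusted p under 0.05 in edgeR. With the replicate number as a block, with DESeq2 size factors or without the filter on low counts, edgeR called 1 gene of the list lower. Some fits with a library left out also called genes of the list, in both directions. The median was -0.16, and it was 0.15 without control replicate 1 and -0.26 without control replicate 2. Retn, with the highest CPM, was at -0.14 (adjusted p = 0.66).

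Over the 5 lists, 6 genes were higher and 1 lower with both trends removed, in place of 14 and 6. Over all 12888 tested genes, 664 were higher and 768 lower in that fit, in place of 2001 and 1379. Klf11 (0.67, adjusted p = 0.0030), Ppara (0.84, adjusted p = 0.00042), Elovl3 (0.92, adjusted p = 0.0081), Ppargc1a (0.73, adjusted p = 0.0125), Pdk4 (0.42, adjusted p = 0.0121) and Hdac3 (-0.36, adjusted p = 0.022) were called in that fit, as was Klf4 (0.51, adjusted p = 0.039), which was not called before (0.34, adjusted p = 0.11). The calls of the other 14 genes were lost, among them all 4 of the opposing list. Med1 was at 0.19 (adjusted p = 0.28), Ehmt2 at -0.21 (adjusted p = 0.12), Nr3c1 at 0.33 (adjusted p = 0.13), Klf3 at 0.29 (adjusted p = 0.14) and Srebf1 at -0.34 (adjusted p = 0.056). Nfia was at -0.031 (adjusted p = 0.86), Cox8b at 0.034 (adjusted p = 0.84) and Cox7a1 at 0.059 (adjusted p = 0.73), each with the sign turned.

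**Figure D5:**
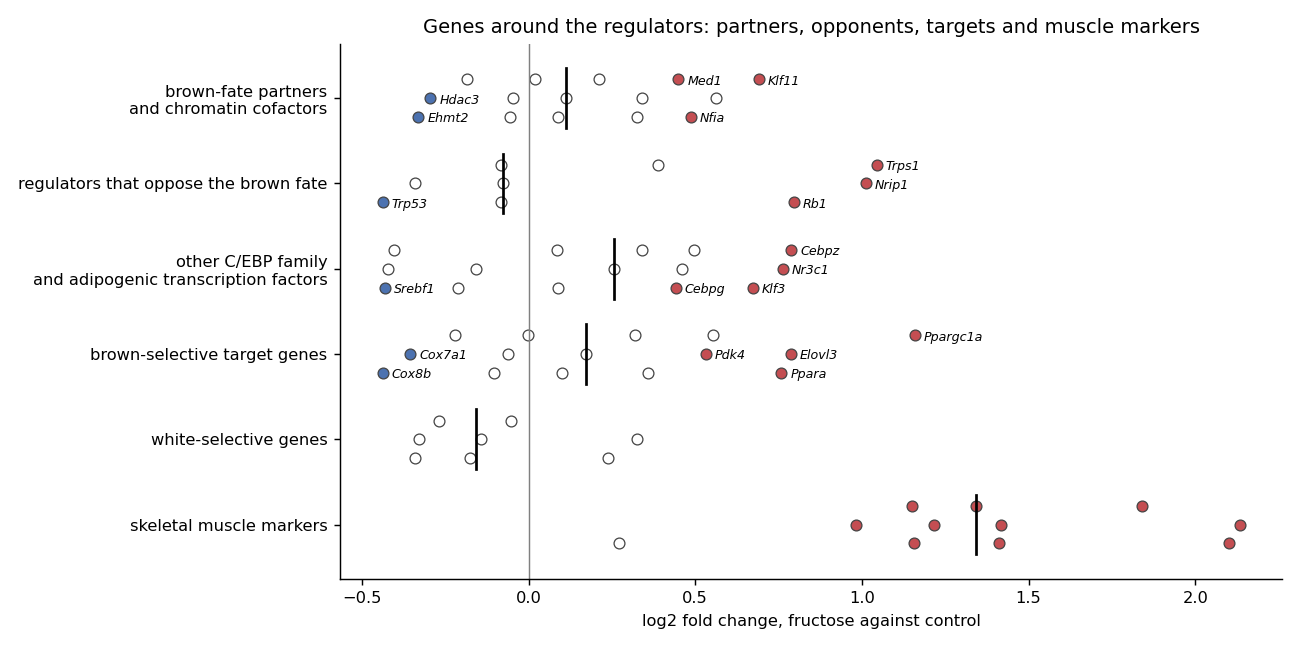
Log2 fold change (fructose against control) of the tested genes of 5 lists around the regulators and of the skeletal muscle markers, with called genes filled (red higher, blue lower), the others open, and the list median as a line. Called genes lie on both sides of 0 in the partner, opposing, adipogenic and target lists, no white-selective gene is filled, and 10 of 11 muscle markers are filled above 0.

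Markers of some other cell types moved beside the regulators, where 15.5% of all tested genes were higher and 10.7% lower. Of 11 tested skeletal muscle markers 10 were higher, and the list summed to 318 and 410 CPM in control and 906 and 683 CPM in fructose, with Acta1 the highest in CPM and Pax7, of muscle precursors, at 0 and 2 counts in control and 7 and 11 counts in fructose. Of 6 erythroid markers 5 were lower, with sums of 19185 and 15263 CPM in control and 11746 and 12127 CPM in fructose. Of 8 adipocyte markers 2 were higher and 4 were lower, with sums of 18172 and 17370 CPM in control and 15925 and 15690 CPM in fructose, and Fabp4 the highest in CPM. Progenitor and fibroblast markers had 1 higher and 1 lower of 11, macrophage markers 1 higher and 2 lower of 7, and smooth muscle and pericyte markers 1 higher of 6. Of 6 endothelial and 5 Schwann cell markers 0 were called by edgeR and 0 by DESeq2, with 4 (Pecam1, Kdr, Tie1 and Tek) and 0 at an unadjusted p under 0.05 in edgeR. With both trends removed, 664 of all 12888 tested genes were higher and 768 lower. Of the skeletal muscle markers, 11 of 11 were then higher. Of 6 erythroid markers 0 were called (median log2 fold change -0.18 in place of -0.52), and 0 adipocyte markers were higher and 1 (Fabp4) lower. In that fit, 0 progenitor and fibroblast markers were higher and 3 (Dlk1, Cd34 and Dcn) lower, and 0 macrophage markers were called. Emcn, an endothelial marker, was lower, Rgs5, a pericyte marker, was higher, and 0 Schwann cell markers were called. Mitochondrially encoded genes took 5.89% and 6.49% of counts in control and 10.8% and 11.2% in fructose. The part of these shifts in the changes of the EBF and C/EBP genes was not tested.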

How the data were processed

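RNA-seq of fetal BAT gave 2 control and 2 fructose libraries. The authors filtered reads with fastp, mapped them to mm10 with Bowtie2 (2.0.0.5) and TopHat2 (2.0.0), assembled transcripts with StringTie (2.2.0), and deposited raw read counts per gene without normalization, by Ensembl identifier. The counting tool, its strand setting and the annotation release were not given in the sources used here. The 4 single-library files held the same counts as the joint table. Symbols, merged exon lengths and the GC content of the longest transcript came from GENCODE M21 (GRCm38), and 43 of 22298 identifiers found no match.

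Genes kept by filterByExpr (12888) were TMM-normalized and tested with edgeR 4.0.16 in R 4.3.3 (quasi-likelihood test, two-sided, Benjamini-Hochberg adjustment over all tested genes, no covariate). The thresholds were an adjusted p under 0.05, or a p under 0.05 with a fold above 1.3. The test was run on simulated counts with the same dispersion for every gene and no litter or sex structure. That run checked the code only and does not bear on how well the p-values hold here. Alternatives were DESeq2 1.42.0, other scalings and filters, removal of length and GC content trends (lowess, span 0.3), the replicate block and each library left out. Tables were made with Python 3.11.15.

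Beside the 10 genes, the text names from each of the 5 pathway lists the 3 called genes with the largest log2 fold change in each direction whose groups did not overlap, and the gene with the highest CPM, not divided by length. The genes and lists were chosen with earlier results of these data known. At these depths 3 counts, taken as the limit that a count of 0 allows, correspond to 0.127 to 0.162 CPM, which covers counting error only.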

Additional observations from a re-analysis of the deposited data

How the results depend on the processing

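Over all genes, 2001 were higher and 1379 lower, so that 59.2% of calls were higher. Scaling by library size only left 859 lower (72.3% of calls higher, median log2 fold change 0.064), and library sizes that leave out mitochondrially encoded and globin genes left 446 lower (85.9% higher, median 0.13), with 3 lower genes in the pathway lists in place of 6. Under the latter, 6 of the 10 regulators were higher and 2 lower, and Cebpa was at -0.25. Removing the length trend left 1318 genes higher, 1 regulator lower and 9 pathway genes higher. Removing the GC content trend left 1112 genes higher, 1 regulator lower and 2 pathway genes lower. Removing both left 664 genes higher and 768 lower (46.4% of calls higher), 2 regulators higher and 1 lower, and 6 pathway genes higher and 1 lower. With the replicate block added to both trends, 866 genes were higher, 2 regulators higher and 1 lower, and 7 pathway genes higher and 2 lower. With the longest transcript as length, chosen after seeing the data, both trends removed left 499 genes higher and 591 lower, 1 regulator higher and 1 lower, and 5 pathway genes higher and 2 lower, and Prdm16 was at -0.0090 (adjusted p = 0.98). The direction of Prdm16 also turned without control replicate 1, and its leave-one-out values ran from -0.050 (adjusted p = 0.81) to 0.66 (without control replicate 2, adjusted p = 3.7e-05). With each library left out in turn, 1266 to 2254 genes were higher and 527 to 1685 lower, 2 to 4 regulators were higher and 1 to 3 lower, and 13 to 19 pathway genes were higher and 4 to 9 lower. All 6 lowest counts came without fructose replicate 2, and without fructose replicate 1 892 genes were lower. These fits take the lone library of a group to vary like the pair of the other. Deviations of same-numbered libraries from their group means were hardly correlated over genes (r = -0.0266). With 2 libraries a group, this value cannot tell whether the numbers pair libraries. The replicate block gave 2117 genes higher and 1441 lower, with 4 regulators higher and 3 lower. With the longest transcript as length, 6 of 10 genes kept their place in the control order of levels. In fructose, Cebpd then stood at place 7 in place of 4, below Ebf3, Ehmt1 and Ebf1. With that length, Ebf1 gave 16.3% of the EBF sum in fructose. Ebf2 gave 60.3% in control and 60.3% in fructose, and Ebf3 gave 23.2% and 23.4%. Without division by length, Cebpa gave 85.7% of the C/EBP sum in control and 86.6% in fructose, Cebpb 11.98% and 11.5%, Cebpd 2.37% and 1.92%, Ebf1 18.7% and 18.47% of the EBF sum, Ebf2 59.4% and 59.4%, and Ebf3 21.9% and 22.2%. Why these values moved was not tested beyond what each alternative changes. With 2 libraries a group and a common biological coefficient of variation of 8.52%, small changes of genes with few counts, such as Tbx15, were the least well measured.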
